A study of Homo sapiens with 6 samples.

Results

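Zinc finger genes of the ZNF series form the largest group of transcription factor genes in the human genome. Their proteins carry tandem C2H2 fingers, small loops held by a zinc ion between 2 cysteines and 2 histidines, and each finger can read a few bases of DNA or RNA. Many also begin with a KRAB domain, which recruits the corepressor TRIM28 and, through it, the histone methyltransferase SETDB1 and HP1 proteins, and silences transposons and genes. KRAB zinc finger genes arose by local duplication and lie in dense clusters, above all on chromosome 19. ZNF148, the gene that was knocked down, is itself a C2H2 factor that binds GC-rich promoter elements.

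The genes described here are the ZNF-named genes expressed in MDA-MB-231, an established triple-negative breast cancer line whose label gives the subtype as Basal. A gene was taken if its symbol was ZNF followed by a number and at most 1 letter, and if its mean over the 6 samples was at least 3 FPKM (a read density, in which fragments are divided by transcript length and library size). ZNF148 and ZNF281 were left out, and each symbol was represented by its most abundant row. This gave 287 of 527 ZNF-named genes. Of these 287, 10 had more than 1 row, ZNF7, ZNF232 and ZNF428 among them. Their other rows are not described here. Within the ZNF names they were selected on their mean level alone, which is given here as a description. The family itself was chosen with earlier results of these data known. The mean covers both groups, so a row near the threshold could pass through the group where it was higher. ZNF90 had means of 2.48 FPKM in shCtr and 3.74 FPKM in shZNF148, and ZNF652 had 3.51 and 2.58 FPKM. A total of 126 further ZNF genes had a mean of 1 to under 3 FPKM, and 114 were below 1 FPKM, of which 27 were listed at 0 in all samples.

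All 6 samples were MDA-MB-231 cells carrying a lentiviral LKO short hairpin after 48 h of transduction and 24 h in 0.5 µg/ml puromycin. In 3 samples (shCtr) the hairpin was directed against luciferase, and in the other 3 (shZNF148) against ZNF148. Each group rests on 1 hairpin sequence in 1 line. Nothing in the labels says that repeats were separate cultures, so p-values measure the spread between these samples, which may be technical. The number of reads is unknown, and the depth of each sample relative to shCtr replicate 1 was between 0.806 and 1.13, lowest in shZNF148 replicate 3.

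The line's mesenchymal markers were abundant, with VIM at 1770 FPKM in shCtr and 1520 FPKM in shZNF148. All 5 of these markers had lower means in shZNF148, and CD44, AXL and EGFR fell past the adjusted p. The summed level of the 5 was 2960 to 3080 FPKM in shCtr and 2460 to 2540 FPKM in shZNF148. Among 6 luminal markers, ESR1 was listed at 0 in all samples, and PGR, FOXA1 and CDH1 were below 1 FPKM. GATA3 (means of 8.22 FPKM in shCtr and 8.71 FPKM in shZNF148) and EPCAM (10.6 and 9.04 FPKM) were expressed. The summed level of the 6 was 17.8 to 20.1 FPKM in shCtr and 16.5 to 20.4 FPKM in shZNF148. Among 6 markers of other cell types, PTPRC, CD3E and PECAM1 were below 1 FPKM. The summed level was 130 to 158 FPKM in shCtr and 87.8 to 114 FPKM in shZNF148. CD68 made up most of it, with means of 117 and 81.7 FPKM, and was lower past the adjusted p (log2 fold change -0.52, adjusted p = 0.0233 from limma). ACTA2 had means of 18.3 and 16.8 FPKM, and COL1A1 of 5.06 and 3.44 FPKM. All samples were of the same cell line, so these values are not read as numbers of other cells. The part of these shifts in the results below was not tested. In bulk samples, fewer cells with a marker and less of its RNA per cell cannot be told apart.

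ZNF148 checked the labels. Its level was 3.72, 4.36 and 4.30 FPKM in the shCtr samples and 0.914, 0.282 and 0.834 FPKM in the shZNF148 samples, with no overlap, so 16.4% of the control mean was left. By limma the log2 difference amounted to -1.63 (SE 0.18) at an adjusted p of 0.0099. The adjusted p was 0.0673 when shCtr replicate 1 was left out and 0.0653 when shCtr replicate 3 was left out.

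The sequence matched by the hairpin is shown because a near match in another zinc finger gene could have been read by the same guide strand. In the first line the capitals mark the 7 bases that pair with bases 2 to 8 of the guide. In the other lines, which are the nearest sites in the members' canonical transcripts (GENCODE 44), capitals mark mismatches to the target.
shZNF148 target: cccttggtgaatgTAAATGAt
ZNF141: cccttAAtgaaCgtaaGtgaA
ZNF638: ccAttTgGgaaAgtGaatgat
The best site in any of the members had between 5 and 10 mismatches over the 21 bases, and only ZNF141 and ZNF638 had 5. ZNF638, an RNA-binding protein of the nucleus, was at 13.8, 12.2 and 13.4 FPKM in shCtr and 14.7, 15.8 and 16.3 FPKM in shZNF148. ZNF141 was at 3.19, 2.36 and 3.63 FPKM in shCtr and 2.96, 3.28 and 4.64 FPKM in shZNF148. Neither was lower in shZNF148, with log2 fold changes of 0.24 (adjusted p = 0.0895 from limma) and 0.18 (adjusted p = 0.507 from limma). The 7-base word occurred in the 3′ UTR of 70 of 277 members with a coding transcript. The median log2 fold change was 0.062 in the 62 rows with the word and 0.086 in the 165 rows without it.

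Of the 287 members, 148 (51.6%) lie on chromosome 19, followed by 18 on chromosome 7 and 16 on chromosome 16. A KRAB A box pattern was found in 164 of the 277 members with a coding transcript, and 117 of these 164 lie on chromosome 19. Members without KRAB are here those in which the pattern was not found. Some of them may carry a KRAB domain that the pattern missed. The median number of C2H2 fingers was 10, with 11 in members with KRAB and 7 in members without it, and the highest number was 40, in ZNF142. The GC content of the transcripts had a median of 42.3% with KRAB and 49.9% without. The table joined neighbouring genes in some rows, up to 6 symbols in 1 row, so the 287 members sat in 234 rows. A total of 194 rows held 1 gene, and 40 joined rows held 93 members whose levels cannot be told apart. No member row was listed at 0 in any sample.

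Levels were low for most members. The median over the rows was 6.58 FPKM, against 16.2 FPKM over the 10081 tested rows with at least 3 FPKM. Over all 11777 rows tested, which averaged 1 FPKM or more, it was 12.6 FPKM. Of the 234 member rows, 83 were between 3 and 5 FPKM. The highest rows were ZNF207 at 71.8 FPKM (joined with MIR632), ZNF259 at 43.4 FPKM and ZNF146 at 38.9 FPKM. ZNF207 is a microtubule-binding protein of the mitotic spindle, and ZNF259 is the older symbol of ZPR1. Just inside the threshold were ZNF530 (3.023 FPKM), ZNF397 (3.039 FPKM) and ZNF652 (3.046 FPKM), and just outside it were ZNF701 (2.953 FPKM), ZNF724P (2.976 FPKM) and ZNF416 (2.996 FPKM).

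Knockdown of ZNF148 was accompanied by few large changes among these genes. A row was called where its adjusted p was under 0.05 and the change exceeded 1.5-fold. By this rule 5 of the 234 rows rose (ZNF703, ZNF45, ZNF362, ZNF326 and ZNF12) and 1 fell (ZNF219). Over all rows tested, 1.83% were called higher and 3.66% lower. The members' 6 calls (2.56% of their rows) were below the background of 5.49%. This shortfall lay in the rows called lower, and the share called higher was near that of all rows. At the adjusted p alone, 14 rows were higher and 6 lower, which is 8.55% of the rows. Over all rows, 5.46% were higher and 8.13% lower at that threshold. Here too the members fell short only in the lower direction. The counts depended on single controls. No member passed the adjusted p in limma when shCtr replicate 1 or shCtr replicate 3 was left out. An unadjusted p under 0.05 in limma was then found in 47 and 42 of the 234 rows, against 67 with all samples. Over all 11777 rows these counts were 2876 and 2981, against 3981 with all samples. Without shCtr replicate 2, 3 members passed, and without shZNF148 replicate 1 or 3, 5 and 10 passed. With median scaling the 6 calls were 4 higher and 2 lower.

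ZNF703 had the largest change. It encodes a corepressor of the NET family, which lacks a tandem C2H2 array, and is known as an oncogene amplified in luminal breast cancer. Its level was 7.38, 12.9 and 7.53 FPKM in shCtr and 27.3, 21.8 and 25.1 FPKM in shZNF148. All shZNF148 samples lay above all shCtr samples, although shCtr replicate 2 stood above the other controls. The means were 9.27 ± 3.15 FPKM and 24.7 ± 2.78 FPKM (SD, n = 3 per group), a ratio of 2.66. On the scale of log2(FPKM + 1) limma gave a fold change of 1.36 ± 0.21 (SE), with an adjusted p of 0.0172. ZNF503, the other NET gene, had a mean of 1.40 FPKM and a log2 fold change of -0.08 (adjusted p = 0.759 from limma).

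ZNF45, a KRAB zinc finger gene with 15 fingers on chromosome 19 (43912624 to 43935282 in GRCh38, minus strand), was the next largest. It had 3.99, 4.79 and 4.51 FPKM in shCtr and 9.21, 10.6 and 8.49 FPKM in shZNF148. The groups were well apart, and limma gave a log2 fold change of 0.94 ± 0.11 (SE) with an adjusted p of 0.0106. ZNF45 sits in a cluster of KRAB genes, and 10 other members lay within 500 kb of it, in 5 rows. Of these rows, 4 had a higher mean in shZNF148 and none passed the adjusted p. The nearest in size of change were ZNF226 and ZNF234, joined in 1 row, at 11.7, 9.93 and 10.8 FPKM in shCtr and 15.2, 12.2 and 13.2 FPKM in shZNF148 (log2 fold change 0.30, adjusted p = 0.0977 from limma). The row of ZNF155, ZNF222, ZNF224, ZNF230 and ZNF284 had a log2 fold change of 0.16 (adjusted p = 0.368 from limma). The other 5 called genes had no further member within 500 kb.

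ZNF326 encodes a subunit of the DBIRD complex, which couples RNA polymerase II elongation to splicing. It lies on chromosome 1 (89995110 to 90035533, plus strand) and had 8.29, 9.53 and 9.02 FPKM in shCtr against 15.2, 16.8 and 16.3 FPKM in shZNF148. The samples of each group lay close together, with means of 8.95 ± 0.622 and 16.1 ± 0.78 FPKM (SD over 3 samples). By limma the log2 difference amounted to 0.78 (SE 0.08) at an adjusted p of 0.00931.

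ZNF362, also on chromosome 1 (33256492 to 33300719, plus strand), has 6 fingers and is a close relative of ZNF384. It had 4.20, 3.37 and 3.65 FPKM in shCtr and 5.78, 8.88 and 7.56 FPKM in shZNF148. The groups did not overlap, and within shZNF148 replicate 1 was the lowest and replicate 2 the highest. Limma gave a log2 fold change of 0.81 ± 0.15 (SE) with an adjusted p of 0.0253. ZNF384 itself had a log2 fold change of 0.11 (adjusted p = 0.401 from limma).

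ZNF12, a KRAB repressor gene with 15 fingers on chromosome 7 (6688433 to 6706947, minus strand), had 4.01, 3.62 and 3.65 FPKM in shCtr and 6.14, 5.56 and 6.81 FPKM in shZNF148. The groups did not overlap, and by limma the log2 difference amounted to 0.59 (SE 0.10) at an adjusted p of 0.0204.

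ZNF219 was the 1 member called lower. Its protein has 9 fingers and acts with SOX9 in cartilage. It lies on chromosome 14 (21090077 to 21104722, minus strand) and had 4.96, 4.28 and 4.52 FPKM in shCtr and 2.61, 3.23 and 2.25 FPKM in shZNF148. Limma gave a log2 fold change of -0.60 ± 0.13 (SE) with an adjusted p of 0.0311. Its exons overlap those of ARHGEF40 on the opposite strand over 172 bases, and since strand-specific counting is not stated, reads there cannot be told apart. ARHGEF40 had a log2 fold change of -0.08 (adjusted p = 0.533 from limma).

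**Figure D1:**
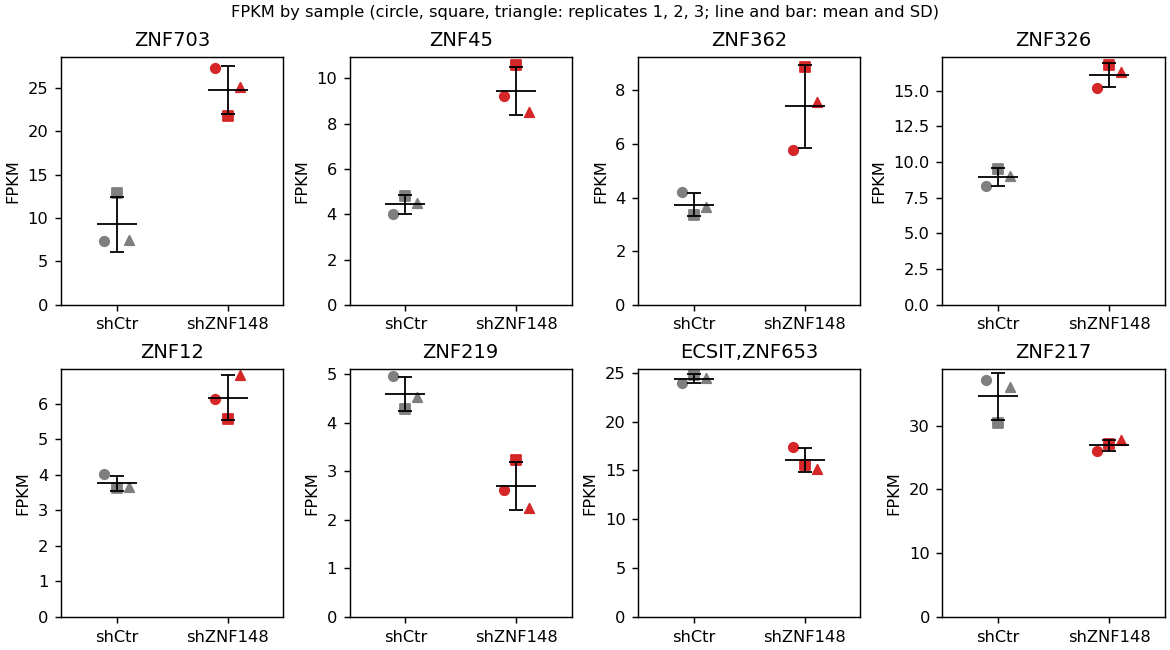
FPKM of the 6 called members, of the ECSIT and ZNF653 row and of ZNF217 in each sample, with a linear axis from 0. Points are samples (circle, square and triangle for replicates 1, 2 and 3), and lines and bars are the mean and SD of 3 samples. In each panel the shCtr and shZNF148 samples do not overlap, and ZNF703 rose from a mean of 9.27 to 24.7 FPKM.

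A further 9 rows rose past the adjusted p but stayed under 1.5-fold on the scale of log2(FPKM + 1), on which calls were made and which understates changes of low genes. In FPKM itself the ratio of means was 1.58 for ZNF346, and the row of ZNF350 had means of 26.0 and 39.1 FPKM. ZNF346, a protein that binds double-stranded RNA, had 3.34, 3.13 and 3.17 FPKM in shCtr and 5.30, 5.25 and 4.63 FPKM in shZNF148 (log2 fold change 0.52, adjusted p = 0.0217 from limma). ZNF592, a partner of ZNF687 and ZMYND8 at chromatin, had 8.17, 8.39 and 8.23 FPKM in shCtr and 12.1, 12.1 and 9.86 FPKM in shZNF148 (log2 fold change 0.41, adjusted p = 0.0394 from limma). ZNF687 had a log2 fold change of 0.15 and ZNF532, another relative, one of 0.03, and neither passed (adjusted p = 0.442 and 0.829 from limma).

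ZNF276 had a log2 fold change of 0.51 (adjusted p = 0.0372 from limma). Its exons overlap FANCA, a gene of DNA crosslink repair, on the opposite strand over 1328 bases. FANCA had a log2 fold change of -0.19 (adjusted p = 0.151 from limma), and reads in the overlap cannot be told apart. The KRAB genes ZNF75A, ZNF470 and ZNF584 had log2 fold changes of 0.47, 0.40 and 0.39 (adjusted p = 0.0393, 0.0409 and 0.0428 from limma). In each the samples of the groups did not overlap.

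The other 3 rows that rose joined genes of KRAB clusters. The row of ZNF350, ZNF432, ZNF615 and ZNF841 was the most abundant KRAB row, with 26.8, 23.4 and 27.7 FPKM in shCtr and 32.7, 45.4 and 39.1 FPKM in shZNF148 (log2 fold change 0.56, adjusted p = 0.0382 from limma). ZNF350 is known as a partner of BRCA1, but the row does not show which of its genes changed. ZNF28, ZNF320 and ZNF468 shared a row with 12.3, 13.4 and 12.4 FPKM in shCtr and 15.3, 17.1 and 18.1 FPKM in shZNF148 (log2 fold change 0.37, adjusted p = 0.0356 from limma). ZNF253, ZNF486 and ZNF93 shared a row with 10.5, 10.7 and 11.2 FPKM in shCtr and 13.1, 14.3 and 13.7 FPKM in shZNF148 (log2 fold change 0.32, adjusted p = 0.0356 from limma). ZNF93 is known as a repressor of LINE-1 elements.

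Besides ZNF219, 5 rows fell past the adjusted p. The row of ECSIT and ZNF653 was the clearest, with 23.9, 24.8 and 24.5 FPKM in shCtr and 17.4, 15.6 and 15.1 FPKM in shZNF148 (log2 fold change -0.58, adjusted p = 0.0118 from limma). ECSIT, an assembly factor of mitochondrial complex I, lies beside ZNF653, and their shares of the row are unknown. ZNF83 had 28.3, 20.7 and 23.2 FPKM in shCtr and 14.0, 16.7 and 18.0 FPKM in shZNF148 (log2 fold change -0.54, adjusted p = 0.0483 from limma).

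ZNF217, an oncogene amplified in breast cancer, had 37.2, 30.4 and 36.1 FPKM in shCtr and 26.0, 27.1 and 27.7 FPKM in shZNF148 (log2 fold change -0.34, adjusted p = 0.0495 from limma). ZNF7 and ZNF444 had log2 fold changes of -0.47 and -0.39 (adjusted p = 0.0366 and 0.049 from limma). ZNF7 was the only gene with the KRAB pattern among the 6 rows that fell. ZNF217, ZNF444 and ZNF83 lay just under the threshold.

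Some differences of this size did not pass the adjusted p, and 3 are given here, chosen after their values were seen. ZNF114, a KRAB gene on chromosome 19, had 8.39, 9.08 and 9.07 FPKM in shCtr and 12.5, 22.3 and 13.6 FPKM in shZNF148, with replicate 2 far above the other treated samples (log2 fold change 0.75, adjusted p = 0.0536 from limma). ZNF232 had 11.1, 7.83 and 8.11 FPKM in shCtr and 8.44, 4.68 and 4.32 FPKM in shZNF148, and the groups overlapped (log2 fold change -0.59, adjusted p = 0.14 from limma). ZNF428, which lies near ZNF45, had 10.8, 10.4 and 26.9 FPKM in shCtr and between 6.41 and 15.1 FPKM in shZNF148, with shCtr replicate 3 above all other samples (log2 fold change -0.50, adjusted p = 0.433 from limma).

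**Figure D2:**
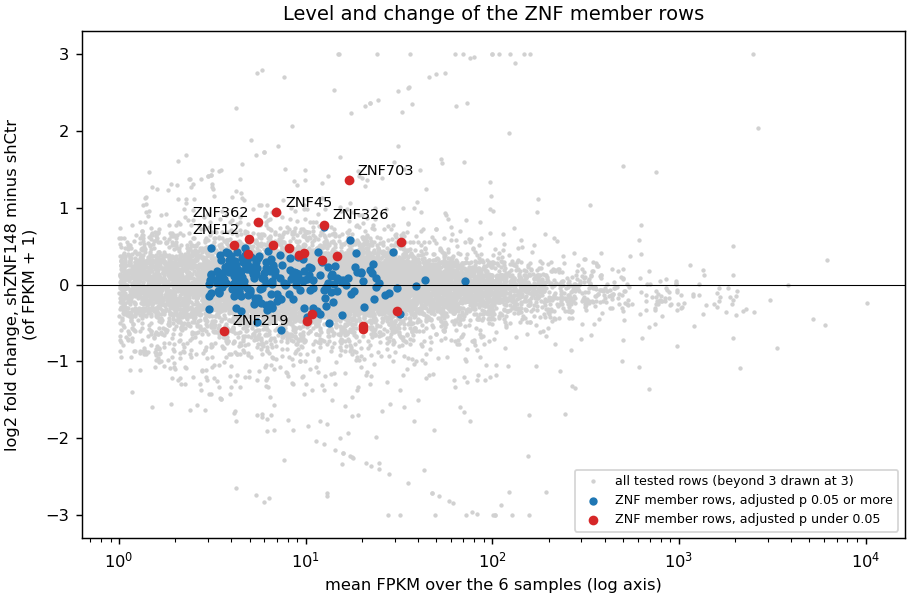
Mean FPKM over the 6 samples (log axis) against the log2 fold change of FPKM + 1, shZNF148 minus shCtr, for all 11777 tested rows (grey) and the 234 member rows (blue, and red where the adjusted p was under 0.05). Member rows lie between -0.60 and 1.36, and the 6 called members are named.

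Below these single genes, the members as a group sat slightly above the other genes. A total of 156 of 234 rows (66.7%) had a higher mean in shZNF148, against 50.9% of all rows tested and 51.0% of the 10081 rows with at least 3 FPKM. The median log2 fold change was 0.083, against 0.006 over all rows, with quartiles of -0.07 and 0.23. In 56 rows (23.9%) all shZNF148 samples were above all shCtr samples, and in 24 rows (10.3%) all were below. Over all rows tested these shares were 20% and 21.0%. These are counts and medians of rows chosen with earlier results known, and no test was made of the group.

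The shift was seen in each shZNF148 sample. Relative to the mean of the controls, the median of the member rows was 0.050, 0.117 and 0.084 in shZNF148 replicates 1, 2 and 3. The control samples lay at 0.006, -0.015 and -0.002, but their own mean was the reference, which holds them near 0. The SD of these sample medians within groups was 0.0248. The median of all rows tested lay between -0.003 and 0.011 in the 6 samples. Over 18 other settings of the fit, the members' median stayed 0.052 to 0.097 above that of all rows, and 63.7% to 67.4% of the member rows were higher. These settings use the same samples and are not independent of each other. When samples were corrected for GC content and transcript length, an alternative chosen after seeing the data, the median was 0.096 against 0.019 over all rows.

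**Figure D3:**
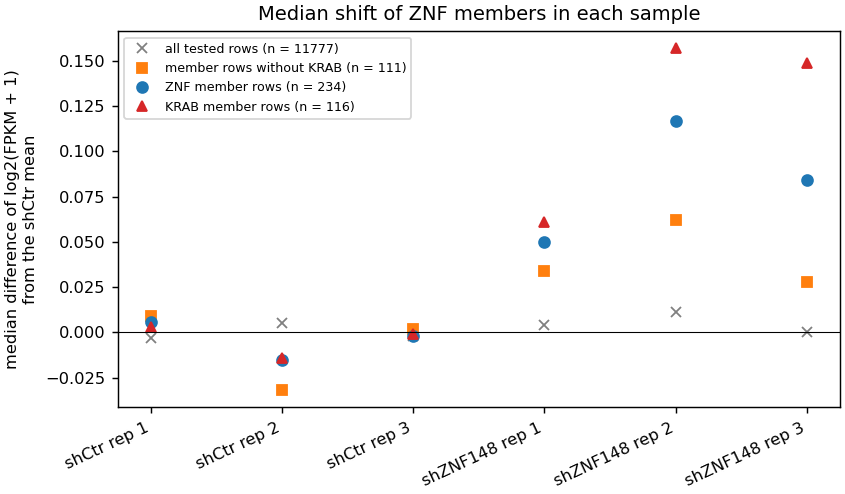
Median difference of log2(FPKM + 1) from the mean of the shCtr samples, for each sample and for all tested rows, all member rows and member rows with and without KRAB. Points are medians over rows. In shZNF148 the KRAB rows lie at 0.061, 0.157 and 0.149, above the rows without KRAB at 0.034, 0.062 and 0.028.

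The members were then divided by the KRAB pattern, which was not used to choose them. Of 116 rows with a KRAB gene, 87 (75.0%) were higher in shZNF148, with a median log2 fold change of 0.130. Of 111 rows without one, 63 (56.8%) were higher, with a median of 0.048. Groups did not overlap in the higher direction in 33 KRAB rows (28.4%) and in the lower direction in 7 (6.03%). Among rows without KRAB these counts were 21 (18.9%) and 16 (14.4%). The shares of all rows tested were 20% and 21.0%, so the higher share without KRAB was near that of all rows. At the adjusted p, 8 KRAB rows were higher and 1 lower (7.76% of them), and 6 rows without KRAB were higher and 5 lower (9.91%). Both shares were below the 13.6% of all rows tested (5.46% higher and 8.13% lower). The difference between the classes was not tested. KRAB rows were also less abundant, with a median of 5.77 FPKM against 8.65 FPKM, and lower in GC content.

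By position, the 102 rows on chromosome 19 had a median of 0.116 and the 132 rows elsewhere one of 0.068. Among KRAB rows the medians were 0.147 for the 73 on chromosome 19 and 0.096 for the 43 on other chromosomes. Among rows without KRAB they were 0.005 for 25 rows on chromosome 19 and 0.056 for 86 rows elsewhere. All 3 rows on chromosome 19 that fell past the adjusted p were among the 25 rows without KRAB (12%), of which none rose. Of the 73 KRAB rows on chromosome 19, 6 rose and none fell (8.22%). Both shares were below the 13.6% of all rows tested (5.46% higher and 8.13% lower). The difference between these classes was not tested.

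KRAB members have more fingers, and medians were also taken by finger number. A row that joined genes was placed by its gene with the most fingers, so joined rows tend towards the higher classes. Rows with up to 5 fingers had a median of 0.026 (55 rows, 32 higher), those with 6 to 10 fingers 0.105 (75 rows, 45 higher), those with 11 to 15 fingers 0.076 (58 rows, 42 higher) and those with over 15 fingers 0.155 (39 rows, 31 higher). In the last class 3 rows were higher and none lower past the adjusted p (7.69%). Over all rows tested, 5.46% were higher and 8.13% lower. In 7 rows no coding transcript could be assigned. One was ZNF673, whose symbol was not matched to GENCODE and which RefSeq lists as coding, and the others, such as ZNF702P and ZNF204P, are pseudogenes. These rows had a median of 0.30. None passed the adjusted p in limma, and 3 had an unadjusted p under 0.05, against 3981 of all 11777 rows.

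**Figure D4:**
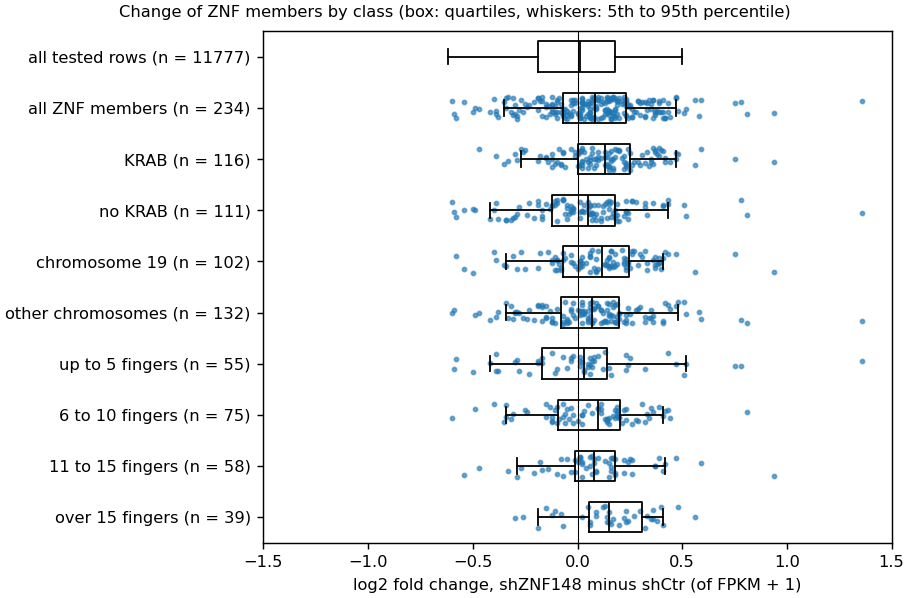
Log2 fold change of FPKM + 1, shZNF148 minus shCtr, for all tested rows and for the member rows by KRAB, chromosome and number of fingers. Points are rows, boxes give quartiles with the median, and whiskers the 5th to 95th percentile. The KRAB median (0.13) and that of rows with over 15 fingers (0.15) lie above that of all tested rows (0.01).

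By level, the median log2 fold change was 0.127 in the 83 rows of 3 to under 5 FPKM, 0.096 in the 79 rows of 5 to under 10 FPKM, 0.061 in the 51 rows of 10 to under 20 FPKM and -0.016 in the 21 rows of at least 20 FPKM. In the last class 1 row rose and 3 fell past the adjusted p, which is 19% of only 21 rows. The share of all rows tested was 13.6% (5.46% higher and 8.13% lower). The 124 ZNF-named rows of 1 to under 3 FPKM, which are not members, had a median of 0.129, and 89 were higher. Among them 5 (4.03%) were called and all were higher, against 1.83% of all rows tested called higher and 3.66% lower. They were ZNF488, ZNF594, ZNF79, ZNF641 and ZNF786, with log2 fold changes of 0.88, 0.84, 0.73, 0.65 and 0.60. These 5 were named after their values were seen. The scale of log2(FPKM + 1) understates changes at these levels. Medians of all rows by the same levels were not taken, so the part of level in the members' shift was not tested. The summed FPKM of a sample was 497730 to 507312 in shCtr and 469594 to 488173 in shZNF148, and its part was not tested either.

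Joined and single-gene rows both had medians above 0. The 40 joined rows had a median of 0.145 with 31 higher, and the 194 single-gene rows one of 0.068 with 125 higher. The row with most symbols, ZNF480, ZNF528, ZNF578, ZNF610, ZNF808 and ZNF880, was at 23.0 FPKM and had a log2 fold change of 0.27 (adjusted p = 0.0925 from limma). The row of ZNF439, ZNF440, ZNF441, ZNF69 and ZNF700 had one of -0.08 (adjusted p = 0.566 from limma). Genes of such clusters resemble each other in sequence, and how reads shared between them were assigned is not stated.

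Genes with a known role were grouped in lists, to be read against the 13.6% of all rows that passed the adjusted p in either direction. Of 9 tested genes with a role in RNA or ribosomes, 2 rose past the adjusted p (ZNF326 and ZNF346, described above) and none fell. ZNF598, the ubiquitin ligase that senses collided ribosomes, was at 15.5 FPKM in shCtr and 15.8 FPKM in shZNF148, with a log2 fold change of 0.03. ZNF622 and ZNF593, factors of the large ribosomal subunit, both had a log2 fold change of 0.08. Their adjusted p-values from limma were 0.798, 0.656 and 0.577.

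Of 18 tested genes with a role in chromatin or core transcription, ZNF592 rose and ZNF219 fell past the adjusted p. ZNF143, an activator at many promoters, varied within groups, with 16.3, 10.4 and 9.45 FPKM in shCtr and 11.4, 13.7 and 17.3 FPKM in shZNF148, and a log2 fold change of 0.23 (adjusted p = 0.495 from limma). ZNF274, a KRAB protein that binds the 3′ ends of other ZNF genes, had 16.8 ± 0.665 and 19.9 ± 1.17 FPKM (SD over 3 samples) and a log2 fold change of 0.23 (adjusted p = 0.0764 from limma). ZNF24 had a log2 fold change of -0.23 (adjusted p = 0.0765 from limma). ZNF410, an activator of CHD4, sat in a row with PTGR2 and had a log2 fold change of 0.15 (adjusted p = 0.24 from limma).

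Of 13 listed genes linked to cancer or differentiation, 8 were tested (ZNF516 and ZNF503 among them below 3 FPKM), with 2 rows higher (ZNF703 and the row of ZNF350) and 1 lower (ZNF217) past the adjusted p. ZNF185, an actin-associated LIM protein, had 35.4, 35.9 and 36.7 FPKM in shCtr and 30.0, 21.5 and 31.7 FPKM in shZNF148. The groups did not overlap, but the shZNF148 samples were widely spread, and the log2 fold change of -0.38 had an adjusted p of 0.113 from limma. ZNF395 and ZNF32 had log2 fold changes of 0.02 and -0.07 (adjusted p = 0.824 and 0.602 from limma).

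Of 6 genes that bind transposons or imprinted loci, 1 row (that of ZNF93) rose past the adjusted p. ZNF91, a repressor of SVA elements with 32 fingers, had a log2 fold change of 0.15 (adjusted p = 0.367 from limma). The row of ZNF382 and ZNF529 had means of 12.9 ± 0.835 FPKM and, after knockdown, 9.97 ± 1.06 FPKM (SD over 3 samples), with a log2 fold change of -0.35 (adjusted p = 0.0576 from limma). None of the 3 tested genes with a role in mitosis passed the adjusted p in limma, and 0 had an unadjusted p under 0.05. ZNF207 had 67.5, 72.8 and 71.2 FPKM in shCtr and 80.6, 66.5 and 72.2 FPKM in shZNF148, and the groups overlapped. ZNF212, a KRAB gene, had 7.48, 6.15 and 6.75 FPKM in shCtr and 7.88, 8.48 and 8.31 FPKM in shZNF148 (log2 fold change 0.25, adjusted p = 0.111 from limma).

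The corepressors that KRAB proteins use were measured in the same samples. Of 18 tested genes in the list, 1 was higher and 2 were lower past the adjusted p, with a median log2 fold change of 0.006. This was 16.7% of the list, against 13.6% of all rows tested. TRIM28, the direct partner of KRAB, was at 155, 158 and 150 FPKM in shCtr and 158, 154 and 144 FPKM in shZNF148 (log2 fold change -0.02, adjusted p = 0.821 from limma). SETDB1 had a log2 fold change of 0.20 (adjusted p = 0.215 from limma).

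The 2 genes called lower were CHD3, a remodeller of the NuRD complex, and CBX1, which encodes HP1 beta. CHD3 had means of 22.5 ± 1.16 and 12.2 ± 1.48 FPKM (SD over 3 samples) and a log2 fold change of -0.84 (adjusted p = 0.0108 from limma). CBX1 had means of 57.0 ± 2.67 and 35.7 ± 7.27 FPKM (SD over 3 samples) and a log2 fold change of -0.68 (adjusted p = 0.0333 from limma). UHRF1, which guides DNMT1 to replicated DNA, rose with a log2 fold change of 0.40 (adjusted p = 0.0218 from limma). CBX3 had a log2 fold change of -0.30 (adjusted p = 0.0755 from limma), and CBX5 one of 0.03 (adjusted p = 0.771 from limma). No member of the list passed when shCtr replicate 1 was left out (5 had an unadjusted p under 0.05) or shCtr replicate 3 (3 had). Without these controls, 2876 and 2981 of all 11777 rows had such a p.

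Related families with other names were counted beside the members. Of 62 tested rows named ZFP, ZBTB, ZSCAN or ZKSCAN, 35 (56.5%) were higher, with a median of 0.049. By family the medians were -0.054 for 16 ZFP rows, 0.092 for 32 ZBTB rows and 0.092 for 14 ZSCAN and ZKSCAN rows. The 2 calls (3.23%) were both lower, against 3.66% of all rows called lower and 1.83% higher. One was ZBTB10 (log2 fold change -0.62, adjusted p = 0.0198 from limma). The other was ZFP36L1 (log2 fold change -0.72, adjusted p = 0.0277 from limma), a CCCH protein that destabilises mRNA and shares only the name. They were named after their values were seen.

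Promoters of the members were searched on both strands for 2 G-rich words, GGGCGG (the GC box) and GGGAGGG, in the 250 bases before the RefSeq start site. A promoter was matched for 241 members. GGGCGG was found in 64.3% of these, against 42.3% of 27303 promoters in all and 68.5% of 8519 promoters of genes in tested rows. GGGAGGG was found in 20.7% of the members' promoters, against 23.6% and 30.1%. It was in 11.8% of promoters of KRAB members and 34.0% of those of members without KRAB. The median log2 fold change was 0.05 in 133 rows with GGGCGG and 0.11 in 70 without it, and 0.02 in 50 rows with GGGAGGG and 0.09 in 153 without it. Promoters of 3 called genes are printed to show the range from many words to none (RefSeq, GRCh38.p14, 5′ to 3′ on the gene's strand, capitals for either word or its reverse complement). They are chr1:33256242-33256491 on the plus strand, chr19:43935283-43935532 on the minus strand and chr14:21104723-21104972 on the minus strand.
ZNF362: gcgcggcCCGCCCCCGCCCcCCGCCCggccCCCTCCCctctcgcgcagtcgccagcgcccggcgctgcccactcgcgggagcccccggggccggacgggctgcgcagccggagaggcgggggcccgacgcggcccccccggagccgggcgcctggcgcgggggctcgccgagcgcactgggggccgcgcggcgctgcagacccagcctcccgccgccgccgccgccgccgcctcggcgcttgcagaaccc
ZNF45: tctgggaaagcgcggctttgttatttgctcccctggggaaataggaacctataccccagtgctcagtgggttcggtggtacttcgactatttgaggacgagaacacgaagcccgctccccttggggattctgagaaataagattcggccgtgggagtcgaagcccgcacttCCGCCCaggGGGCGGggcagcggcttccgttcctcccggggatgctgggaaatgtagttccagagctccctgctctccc
ZNF219: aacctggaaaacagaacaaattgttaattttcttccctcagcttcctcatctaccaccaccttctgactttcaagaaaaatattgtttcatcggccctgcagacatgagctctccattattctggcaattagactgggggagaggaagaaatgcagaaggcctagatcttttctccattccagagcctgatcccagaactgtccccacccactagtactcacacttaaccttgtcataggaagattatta
The ZNF362 window held GGGCGG 3 times and GGGAGGG 1 time, that of ZNF45 held GGGCGG 2 times, and that of ZNF219 held neither. Of the other called genes, ZNF326 had GGGCGG 2 times and ZNF12 had neither word, and the words of the ZNF703 promoter are not given here. A word in a window is not evidence of binding.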

How the data were processed

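RNA of 3 shCtr and 3 shZNF148 samples of MDA-MB-231 cells was sequenced. The deposited values are FPKM in 1 table, named as normalised by the authors, with a column per sample. The submitters' processing notes name bcl2fastq 2.17.1.14, TopHat2 2.0.14, Cufflinks 2.2.1 and Cuffnorm 2.2.1 with the builds hg18 and hg19, whereas the paper's methods name Salmon, GRCh38 and DESeq2, and which of these made the table is not stated. Read counts could not be recovered, so only relative depth is known.

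A pseudocount of 1 was added before the log2 scale. Of 24108 rows, the 11777 that averaged 1 FPKM or more were fitted with limma 3.58.1 (eBayes with a mean-variance trend, R 4.3.3), with Benjamini-Hochberg adjustment over all of them. Rows were called at an adjusted p under 0.05 and over 1.5-fold. The fit was tested on simulated data for this comparison. Of 200 rows changed 2-fold among 11777, it called 166 (83.0%), with 7 false calls. The change was 2-fold in FPKM + 1, the lowest rows were not among those changed, and the noise was independent between rows. Most members changed by less, so this share does not apply to them. The members, lists and tests were chosen with earlier results of these data known. Named genes were all called members, those past the adjusted p (up to 10 in each direction), the 5 with the highest mean, listed role genes past the adjusted p, members in the study's tables (chosen by the study on these samples), and the 3 on each side of the FPKM threshold. Other role genes and relatives were named for context after their values were seen.

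Locations, transcripts and 3′ UTRs came from GENCODE 44 canonical transcripts (GRCh38), to which 285 of 287 members were matched, 11 through older symbols. KRAB was called where at least 12 of 15 conserved A box positions matched in a 30-residue window of the translated coding sequence, and fingers by the pattern of cysteines and histidines. Alternatives covered the pseudocount, the filter, scaling, the replicate block, the variance model, joined and zero rows, thresholds and leaving out each sample. The correction for GC content and length was added after seeing the data. Python 3.11.15 with pandas 2.3.3, numpy 2.4.6 and matplotlib 3.10.9 was used for the other steps.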

Additional observations from a re-analysis of the deposited data

How the results depend on the processing

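The count of called members (6) was 3 with a pseudocount of 5 FPKM, 9 with one of 0.1 FPKM (7 higher and 2 lower) and 2 with a replicate block (samples blocked by number), alone or with the correction for GC content and length. It was 11 for members of at least 1 FPKM, 2 for those of at least 10 FPKM, and 20 and 47 at an adjusted p under 0.05 and under 0.1 with no fold threshold. With 1 sample left out it ranged from 0 to 7. The count past the adjusted p (20) was 7 with no filter on low values, 3 with the replicate block, 2 with the block and the correction for GC content and length, and 0 to 17 with 1 sample left out, being 0 without shCtr replicate 1 or 3. Same-numbered samples correlated at 0.00104, -0.0881 and 0.0304 in their deviations, so the numbers were not taken as pairs. Under the replicate block, ZNF45, ZNF326 and the row of ECSIT and ZNF653 had adjusted p-values under 0.05 (0.0415, 0.0415 and 0.0475), as had ZNF148 (0.0415). Of the ZNF rows below 3 FPKM, 5 were called, and 0 to 3 with 1 sample left out. It was 0 with a pseudocount of 5 FPKM or the replicate block, alone or with the GC correction. With the block, 17 and 18 of these 124 rows had an unadjusted p under 0.05 in limma. Over all rows, 3562 of 11777 and 3664 of 11449 had. Of the KRAB repressor complex, 2 were called, and 1 with no filter or the replicate block, alone or with the GC correction, and 0 to 2 with 1 sample left out. Of the other zinc finger families, 2 were called, and 1 with a pseudocount of 5 FPKM or the replicate block, alone or with the GC correction, and 0 to 2 with 1 sample left out. The members' median (0.083) was 0.057 with a pseudocount of 5 FPKM and 0.070 to 0.103 with 1 sample left out. ZNF148 ranged from -1.74 to -1.45 with 1 sample left out. All 6 called members kept their direction in all 18 other fits. Changes near 0 turned sign when 1 sample was left out, with ranges of -0.02 to 0.11 for ZNF207 (negative without shZNF148 replicate 1), -0.06 to 0.03 for ZNF146 (0.03 and 0.02 without replicate 2 of shCtr or shZNF148), -0.13 to 0.00 for ZNF32, -0.25 to 0.02 for ZNF397 and -0.05 to 0.06 for ZNF530. ZNF146 was also at 0.00 with quantile normalization. The cause of these differences was not tested. The unknown number of reads limits the precision of members near 3 FPKM.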
